A study of Homo sapiens with 24 samples.

Results

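Depletion of the chromatin reader HP1γ was compared with depletion of the lysine methyltransferase G9a in Nalm6 cells, an established human leukemia cell line of B-cell precursor type. The comparison took all 6 shHP1g libraries against all 6 shG9a libraries, 12 of the 24 RNA-seq libraries, with treatment and replicate number as blocks. Nalm6 cells were transduced with lentivirus coding for an shRNA against a nonspecific sequence (shNS), G9a (shG9a), GLP (shGLP) or HP1γ (shHP1g), and puromycin-resistant populations were then given 100 nM dexamethasone (dex) or the ethanol vehicle (etoh) for 8 h. Each shRNA and treatment had 3 replicates, which the labels place on different days. One shRNA construct is named per target, so depletion of the target and other effects of that shRNA cannot be told apart, and shNS and shGLP values are given only to show where the libraries compared stand.

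G9a, coded by EHMT2, and its partner GLP, coded by EHMT1, add methyl groups to lysine 9 of histone H3, a mark found in silent chromatin. HP1γ, coded by CBX3, is 1 of the HP1 proteins that bind this mark through a chromodomain and is also found on transcribed genes. G9a and GLP can methylate themselves, HP1γ can bind the methylated form, and in this way all 3 act as coregulators of the glucocorticoid receptor, the hormone-activated transcription factor that kills many lymphoid leukemia cells.

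Counts per library ran from 9658677 to 13323421 in shHP1g cells and from 10220732 to 14387770 in shG9a cells. Of the 8 B-lineage marker genes, CD79A and MME (which codes for CD10) had transcripts that passed the filter on low counts, 2 genes were listed at 0 in all 24 libraries, and the summed level was 29.6 to 55.4 CPM in shHP1g and 24.5 to 35.4 CPM in shG9a libraries. CPM is the count relative to the library total, which was first adjusted by upper quartile scaling. Markers of T cells, erythroid cells and epithelium reached at most 0.311 CPM in sum. The myeloid list, of which LYZ and MPO were tested, summed to 2.8 to 11.8 CPM with shHP1g and 4.61 to 8.61 CPM with shG9a, and 0 of its 2 tested transcripts were called (edgeR). Replicate 1 of shHP1g stood apart from replicates 2 and 3 in several gene groups, and results that rest on it are given with and without it.

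The targeted gene was followed first. CBX3, on chromosome 7 from 26240782 to 26253227 (GRCh37, plus strand), had 2 tested transcripts at low depth. NM_016587 ran from 1.59 to 3.39 CPM (median 2.71) in shHP1g libraries and from 3.85 to 5.9 CPM (median 4.95) in shG9a libraries. The ranges did not overlap, and the log2 difference of shHP1g minus shG9a was -0.92 (standard error 0.15, adjusted p = 1.36e-04, quasi-likelihood F test of edgeR, adjusted over all tested transcripts after Benjamini and Hochberg). The shNS libraries ran from 3.23 to 4.26 CPM and overlapped with both, and the difference from shNS was -0.55 for shHP1g (adjusted p = 0.0231, edgeR). The other transcript, NM_007276, overlapped between the shRNAs (log2 difference -0.09, adjusted p = 0.787, edgeR). EHMT1 (NM_001354259) ran from 2.73 to 3.83 CPM with shHP1g and from 3.01 to 4.05 CPM with shG9a, with a log2 difference of -0.02. CBX5, which codes for HP1α, had a log2 difference of -0.34 that did not pass the limit (adjusted p = 0.148, edgeR). EHMT2 was not analysed here, so the depletion of G9a has no check of its own in these counts. The study reports that the shRNAs against G9a, GLP and HP1γ efficiently lowered their targets, by immunoblot for protein and RT-qPCR for mRNA.

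Of 10167 transcripts tested, 1533 (15.1%) differed between shHP1g and shG9a cells at an adjusted p of at most 0.05. Of these, 959 (9.43% of those tested) were higher and 574 (5.65%) lower with shHP1g. The count was 826 without the replicate block, 961 without replicate 2 and 678 without replicate 3. The split of directions depends on the scaling of the libraries: with TMM scaling it was 758 higher and 758 lower, and with DESeq2 it was 658 higher and 775 lower, and the median log2 difference of all tested transcripts was 0.04 here against 0.01 and 0.00 there. Most differences were small. The median absolute log2 difference of the called transcripts was 0.33, and 874 of them differed by less than 1.3-fold. A difference of at least 2-fold was found for 110 higher and 17 lower transcripts. In 1085 of the 1533, all 6 pairs of libraries with the same treatment and replicate number differed in 1 direction, and in 310 the 6 shHP1g libraries did not overlap the 6 shG9a libraries, as was true of 321 (3.16%) of all transcripts tested. Ethanol and dex libraries of the same shRNA and replicate number deviated together from their group means (Pearson r across 5606 transcripts 0.635 to 0.83 for shHP1g and 0.098 to 0.406 for shG9a), so they were also summed to 3 against 3. That fit called 891 transcripts, 873 of them among the 1533. The adjusted p of a single gene is from the fit of separate libraries unless stated. For LINC00861, for example, it was 1.61e-10 there and 3.48e-06 with the sums (edgeR). Bulk counts cannot tell fewer expressing cells from less RNA per cell.

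**Figure D1:**
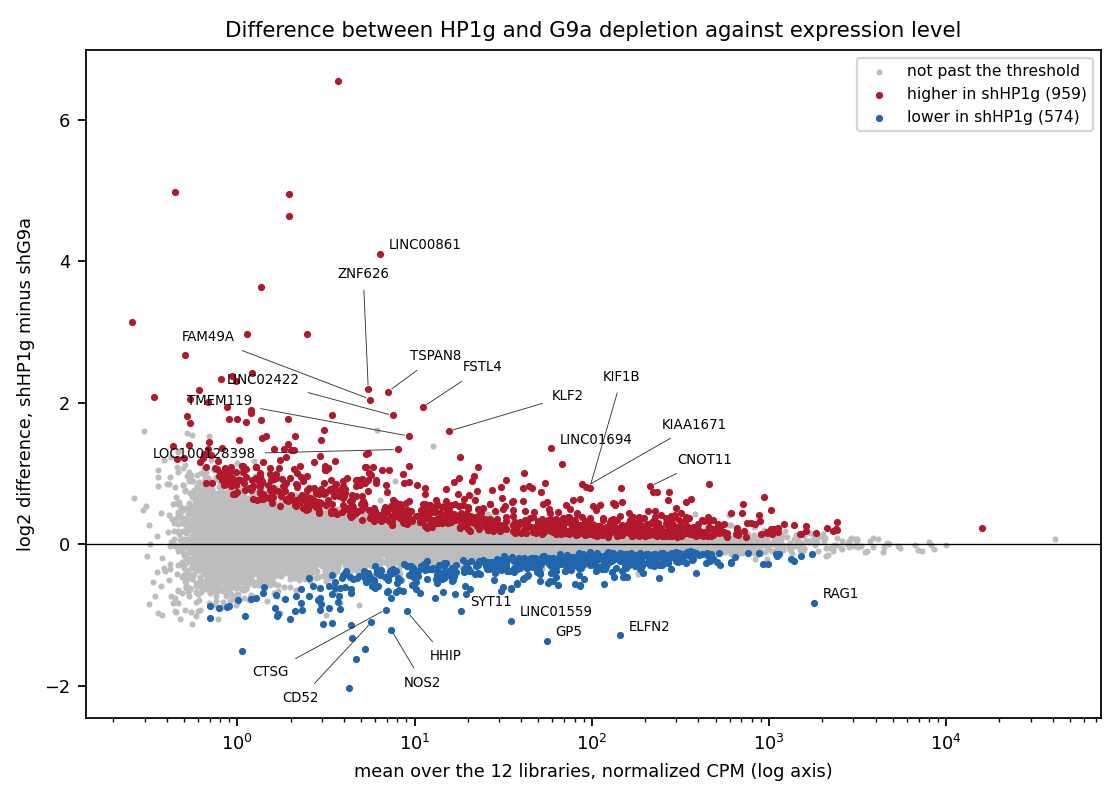
Each point is a tested transcript, with its mean normalized CPM over the 12 libraries on a log axis and the log2 difference of shHP1g minus shG9a on the vertical axis. Red points (959) were called higher and blue points (574) lower with shHP1g, and labels mark the transcripts of at least 5 CPM with the largest differences or the smallest p. The named transcripts with the largest differences were on the higher side, led by LINC00861 (4.11), and RAG1 (-0.82) lies far below 0 for its high level.

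Among transcripts with a mean of at least 5 CPM that differed in 1 direction in 6 of 6 pairs, the largest rise belonged to LINC00861, a long noncoding RNA gene. Its level (NR_038446, chromosome 8 from 126871965 to 127305033, minus strand) was 6.64 to 22.2 CPM (median 8.76) with shHP1g and 0.248 to 1.46 CPM (median 0.553) with shG9a. This is a log2 difference of 4.11 (standard error 0.26, adjusted p = 1.61e-10, edgeR), and the shNS libraries, at 1.13 to 3.21 CPM, lay between the 2 depletions without overlapping shHP1g. The noncoding RNA LINC01694 (NR_146912, chromosome 21 from 47010685 to 47023002) was better covered, with at least 339 reads in each of the 12 libraries. It ran from 70.3 to 93.6 CPM in shHP1g cells and from 30.4 to 35.7 CPM in shG9a cells, a log2 difference of 1.36 (standard error 0.06, adjusted p = 8.71e-13, edgeR). Here shNS (27.1 to 37.9 CPM) and shGLP (30.4 to 38.5 CPM) lay at the level of shG9a, so of the 4 shRNAs shHP1g was the one that stood away. LINC02422 and LOC100128398, both noncoding, had log2 differences of 1.82 and 1.34.

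The protein-coding genes FAM49A, FSTL4, TMEM119, TSPAN8 and KLF2 were also among the 10 largest differences with a higher level in shHP1g than in shG9a. FAM49A, which codes for a protein that binds the small GTPase RAC1, had 8.2 to 10.8 CPM with shHP1g and 1.16 to 3.18 CPM with shG9a (log2 difference 2.05, standard error 0.14, adjusted p = 7.11e-10, edgeR). FSTL4, a follistatin-like gene, ran from 14.4 to 23.7 CPM against 3.32 to 7.53 CPM (log2 difference 1.94, adjusted p = 9.21e-10, edgeR). TMEM119, a transmembrane protein gene, ran from 9.33 to 19.4 CPM against 3.55 to 6.11 CPM (log2 difference 1.53, adjusted p = 1.61e-10, edgeR). The shHP1g and shG9a libraries did not overlap for any of these 3 genes. FAM49A was also high with shGLP (8.9 to 12.8 CPM) and FSTL4 likewise (8.9 to 18.9 CPM), so of the 3 depletions that of G9a gave their lowest levels. The tetraspanin gene TSPAN8 had a log2 difference of 2.16, but its 25.2 CPM maximum came from replicate 1 of shHP1g, and without both shHP1g libraries of that replicate the difference was 1.34 (adjusted p = 4.27e-07, edgeR). KLF2, a transcription factor of lymphocyte quiescence that dex raised in every shRNA, ran from 2.32 to 80.6 CPM with shHP1g and from 1.08 to 17.1 CPM with shG9a. Its log2 difference of 1.60 (adjusted p = 0.00103, edgeR) likewise fell to 0.82 without both shHP1g libraries of replicate 1. Against shNS, with all libraries, TSPAN8 had log2 differences of 2.07 for shHP1g and -0.09 for shG9a, and KLF2 of 0.18 and -1.43.

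**Figure D2:**
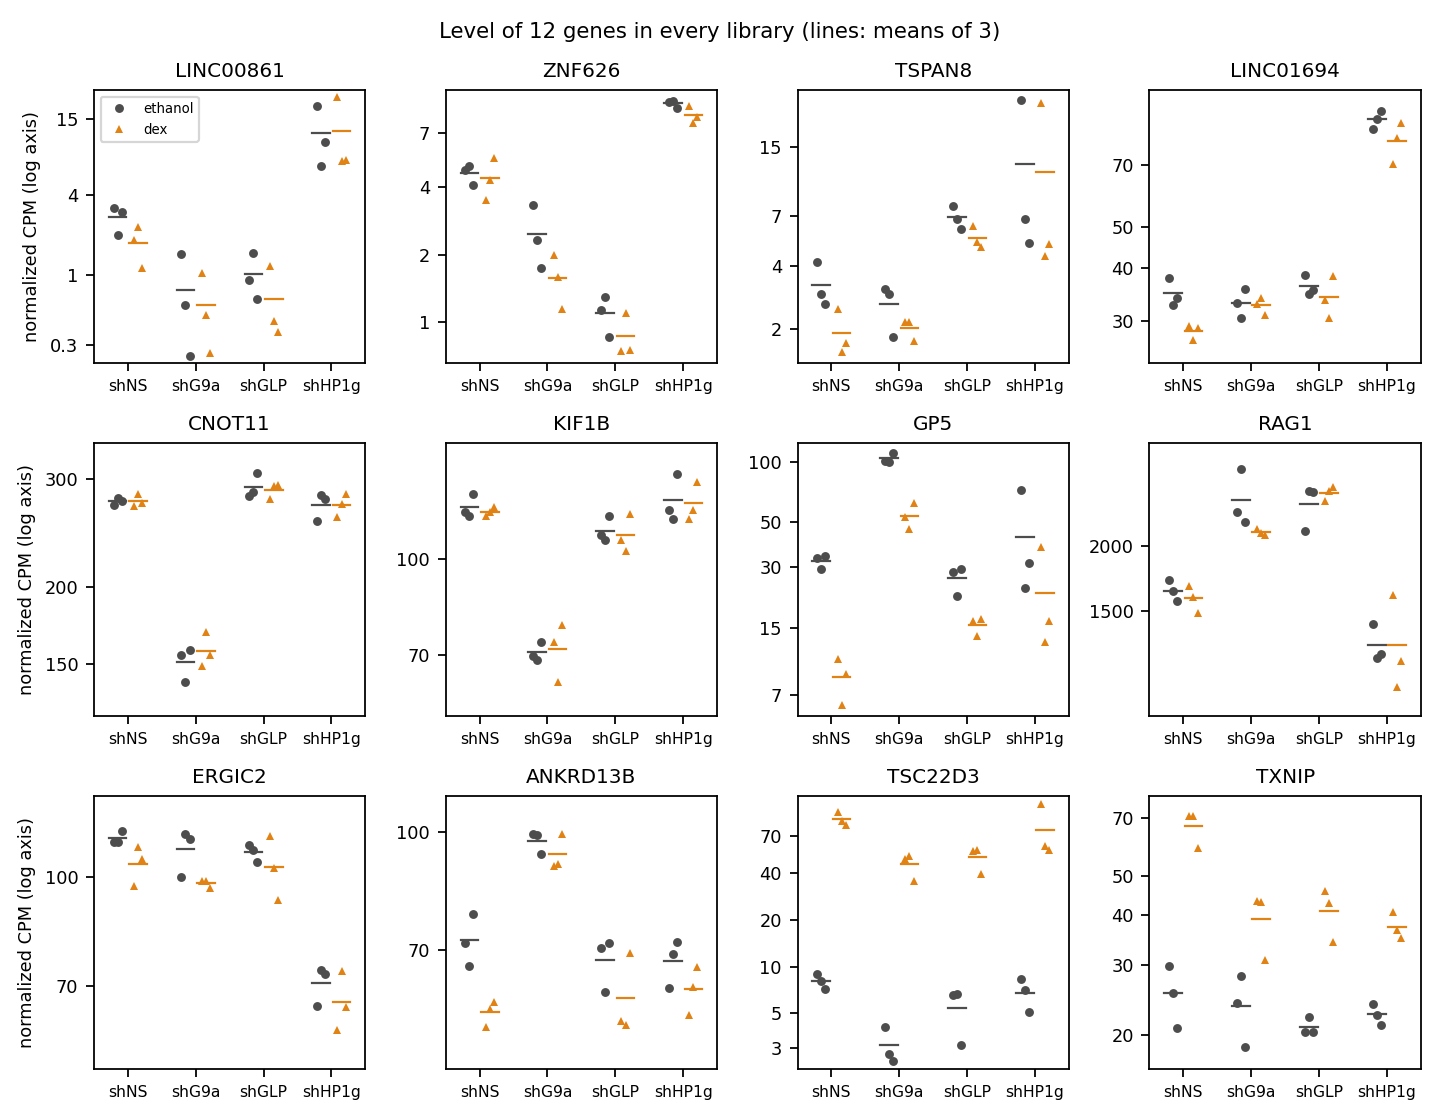
Normalized CPM (log axes) of 12 transcripts in each of the 24 libraries, by shRNA, with circles for ethanol, triangles for dex and a line at the mean of the 3 replicates. LINC01694 stood high only in shHP1g libraries (70.3 to 93.6 CPM), CNOT11 stood low only in shG9a libraries (140 to 169 CPM), and RAG1 was lowest with shHP1g.

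Ranked by p, a further group of higher transcripts stood out through abundance and small spread. CNOT11, a subunit of the CCR4-NOT complex that shortens mRNA tails, had 257 to 284 CPM with shHP1g and 140 to 169 CPM with shG9a (log2 difference 0.82, standard error 0.04, adjusted p = 1.17e-12, edgeR). KIF1B, a kinesin motor gene, ran from 116 to 137 CPM against 63.4 to 78.1 CPM (log2 difference 0.80, adjusted p = 2.28e-12, edgeR). PROSER1 ran from 306 to 372 CPM against 187 to 250 CPM (log2 difference 0.63, adjusted p = 4.65e-12, edgeR). In all 3 genes the level with shHP1g was near that of shNS, and the level with shG9a was the one that stood low. The differences from shNS were -0.02, 0.04 and 0.10 for shHP1g and -0.84, -0.76 and -0.53 for shG9a, in the order CNOT11, KIF1B and PROSER1 (log2; the 2 columns of differences share the shNS libraries). KIAA1671 and FAM43A had log2 differences of 0.82 and 0.74, with both depletions away from shNS in opposite directions.

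Below 5 CPM, some transcripts had few or no reads in shG9a and shNS libraries alike and more with shHP1g. These were chosen after their values were seen, and they passed the filter on low counts only through the shHP1g libraries. The noncoding RNA LINC01602 had 68 to 96 reads in each shHP1g library, 0 to 3 in each shG9a library and 3 to 7 in each shNS library. GRID1, a gene of the glutamate receptor family, had 31 to 53 reads per library with shHP1g and 0 to 3 with shG9a. It had 0 to 4 with shNS and 0 to 7 with shGLP. TSPEAR-AS1 had 30 to 61 reads per library with shHP1g, against 0 to 3 with each of shG9a, shNS and shGLP. It is an antisense RNA, however, and the use of strand in the counting is not given in the sources used here. MISP, which codes for an actin-binding protein of the mitotic spindle, had 5 to 13 reads with shHP1g and 0 to 1 with shG9a, and 0 reads in all shNS and shGLP libraries. No fold is given for these genes, since every shG9a library was at or under 3 counts. On the lower side, GZMA, the gene of the cytotoxic protease granzyme A, had 7 to 35 reads per library with shHP1g and 42 to 154 with shG9a. Its log2 difference was -2.03 (standard error 0.26, adjusted p = 6.60e-06, edgeR), and shNS libraries, at 4 to 27 reads, overlapped with shHP1g and not with shG9a.

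GP5, CD52 and NOS2 were among the 10 largest differences at 5 CPM or more with a lower level in shHP1g than in shG9a. GP5, the gene of platelet glycoprotein V, ran from 12.9 to 72.2 CPM (median 27.7) with shHP1g and from 46.2 to 110.0 CPM (median 81.2) with shG9a. The log2 difference was -1.36 (standard error 0.17, adjusted p = 4.28e-06, edgeR), with dex and ethanol libraries spread widely within each shRNA. GP5 had 73 to 400 reads per library with shNS (median 217) and 170 to 702 with shHP1g (median 297). With shG9a it had 614 to 1325 reads (median 876.5), so shNS overlapped with shHP1g and not with shG9a. CD52, a short glycosylphosphatidylinositol-anchored antigen of lymphocytes, had 2.05 to 5.14 CPM against 4.72 to 10.5 CPM (log2 difference -1.10, adjusted p = 3.53e-07, edgeR). NOS2, the inducible nitric oxide synthase, had 2.64 to 8.43 CPM against 7.17 to 12.7 CPM (log2 difference -1.20, adjusted p = 3.17e-06, edgeR). In GP5, CD52 and NOS2 the groups overlapped over treatments and replicates, although shHP1g was lower in 6 of 6 matched pairs. ELFN2 had a log2 difference of -1.28 and LINC01559 of -1.08, again with overlapping groups. The groups did not overlap for HHIP (log2 difference -0.95), an inhibitor of Hedgehog ligands, for SYT11 (-0.94), a synaptotagmin of vesicle traffic, or for RNF144B (-0.76), an E3 ubiquitin ligase gene. CTSG, the gene of the granulocyte protease cathepsin G, had -0.92, and -0.59 without both shHP1g libraries of replicate 1.

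The most abundant of these genes was RAG1, which codes for the recombinase that cuts antigen receptor genes. RAG1 (NM_000448, chromosome 11 from 36531922 to 36614706) ran from 1070 to 1610 CPM (median 1230) with shHP1g and from 2100 to 2820 CPM (median 2190) with shG9a. The ranges were separate, and the log2 difference was -0.82 (standard error 0.07, adjusted p = 4.43e-08, edgeR). The shNS libraries, at 1490 to 1720 CPM, lay between the depletions, with differences from shNS of -0.32 for shHP1g and 0.50 for shG9a. The lower transcripts chosen by p did not share 1 pattern. ERGIC2, a gene of the compartment between endoplasmic reticulum and Golgi, was low only in shHP1g libraries (60.7 to 73.7 CPM, against 96.5 to 115 CPM with shG9a and 96.9 to 116 CPM with shNS). ANKRD13B, an ankyrin repeat gene, was high only in shG9a libraries (90.2 to 99.6 CPM, against 57.3 to 71.7 CPM with shHP1g and 55.3 to 78.1 CPM with shNS). PGBD5, a gene derived from a transposase, had a log2 difference of -0.44 and SESTD1 one of -0.46, both with separate ranges.

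Genes of the ZNF zinc finger family, most of which code for DNA-binding repressors of the KRAB type, gave 270 tested transcripts, of which 50 were higher and 10 lower with shHP1g (40 and 16 with TMM scaling, 31 and 16 with DESeq2, 32 and 2 without the replicate block). Most of the higher ones lie in the clusters of these genes on chromosome 19, a division made after the values were seen. On chromosome 19, 38 of 120 ZNF transcripts (31.7%) were higher and 2 lower, with a median log2 difference of 0.18, against 9.43% higher and a median of 0.04 over all transcripts tested. On the other chromosomes 12 of 150 ZNF transcripts (8.0%) were higher and 8 lower, with a median of 0.04. Transcripts of chromosome 19 that are not of this family were higher in 95 of 647 cases (14.7%), also above the share over all transcripts. The count for chromosome 19 was 31 with TMM scaling, 25 with DESeq2, 25 with ethanol and dex summed, 27 without the replicate block and 15 without replicate 3. Zinc finger genes are near-identical over long stretches, so their values are uncertain where the counting could split reads between copies.

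The promoters of the 3 transcripts named from this family, each with its level in separate ranges, are shown because all 3 genes were higher with shHP1g. They are RefSeq sequences of GRCh38.p14, from 250 bases before to 50 after the transcription start, on the strand of the gene, and capitals mark CG dinucleotides.
ZNF626, chr19:20661522-20661821, minus strand: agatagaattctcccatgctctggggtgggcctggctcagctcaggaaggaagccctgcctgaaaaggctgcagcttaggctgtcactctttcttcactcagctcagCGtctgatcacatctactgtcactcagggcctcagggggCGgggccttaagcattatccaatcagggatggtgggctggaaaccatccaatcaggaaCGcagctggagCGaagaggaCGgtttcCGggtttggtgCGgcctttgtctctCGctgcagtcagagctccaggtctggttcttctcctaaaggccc
ZNF134, chr19:57613992-57614291, plus strand: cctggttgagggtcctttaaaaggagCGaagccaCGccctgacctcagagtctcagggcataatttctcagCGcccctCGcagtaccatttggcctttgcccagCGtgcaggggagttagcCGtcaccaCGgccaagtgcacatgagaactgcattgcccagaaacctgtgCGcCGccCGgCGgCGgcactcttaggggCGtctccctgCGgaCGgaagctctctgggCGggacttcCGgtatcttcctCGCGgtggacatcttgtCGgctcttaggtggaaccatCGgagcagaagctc
ZNF681, chr19:23758842-23759141, minus strand: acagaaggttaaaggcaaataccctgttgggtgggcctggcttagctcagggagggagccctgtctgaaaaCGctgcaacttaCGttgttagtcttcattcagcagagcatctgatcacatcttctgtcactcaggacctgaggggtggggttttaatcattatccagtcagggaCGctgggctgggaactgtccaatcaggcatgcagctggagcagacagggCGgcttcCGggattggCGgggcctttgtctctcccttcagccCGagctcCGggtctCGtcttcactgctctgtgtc
These 300 bases hold 8 CG dinucleotides in ZNF626, 21 in ZNF134 and 9 in ZNF681. Promoters were matched by symbol for 30 of the 35 chromosome 19 ZNF genes called higher and for 70 of the 75 others, and had a median of 21.5 and 19 CG dinucleotides, against 14 in all 27305 promoters and 26 in the 6468 matched promoters of tested genes. The letters CCAAT occurred on either strand in 56.7% of the higher genes' promoters and in 57.1% of the others, against 35.7% of all promoters and 36.6% of those of tested genes. CACGTG occurred in 3.33%, 5.71%, 7.43% and 10.3% in the same order, and GGCGGG in 73.3%, 75.7%, 44.7% and 69.1%. None of these letters is a measured binding site.

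ZNF626 (NM_001076675, chromosome 19 from 20802745 to 20844402 in GRCh37) had 7.73 to 9.72 CPM with shHP1g and 1.14 to 3.32 CPM with shG9a, a log2 difference of 2.19 (standard error 0.15, adjusted p = 2.70e-10, edgeR). ZNF134 had 102 to 122 CPM against 53.9 to 73.1 CPM (log2 difference 0.85, adjusted p = 5.71e-10, edgeR). ZNF681 had 61.2 to 69.1 CPM against 33.4 to 44.2 CPM (log2 difference 0.74, adjusted p = 4.55e-08, edgeR). In these 3 genes shNS lay between the depletions, at 3.5 to 5.42, 86.0 to 94.6 and 48.2 to 56.3 CPM, and shGLP lay lowest, at 0.742 to 1.29, 34.3 to 41.1 and 24.1 to 33.7 CPM. The log2 differences of further members were 1.76 for ZNF726 (NM_001348687), 1.10 for ZNF329, 1.00 for ZNF256 and 0.65 for ZNF737. Against shNS, 15 of the 120 chromosome 19 transcripts were higher and 2 lower with shHP1g, where 1020 (10.0%) of all transcripts were called, and 4 were higher and 20 lower with shG9a, where 1383 (13.6%) were called. Both comparisons use the shNS libraries, so no overlap between them is given.

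**Figure D3:**
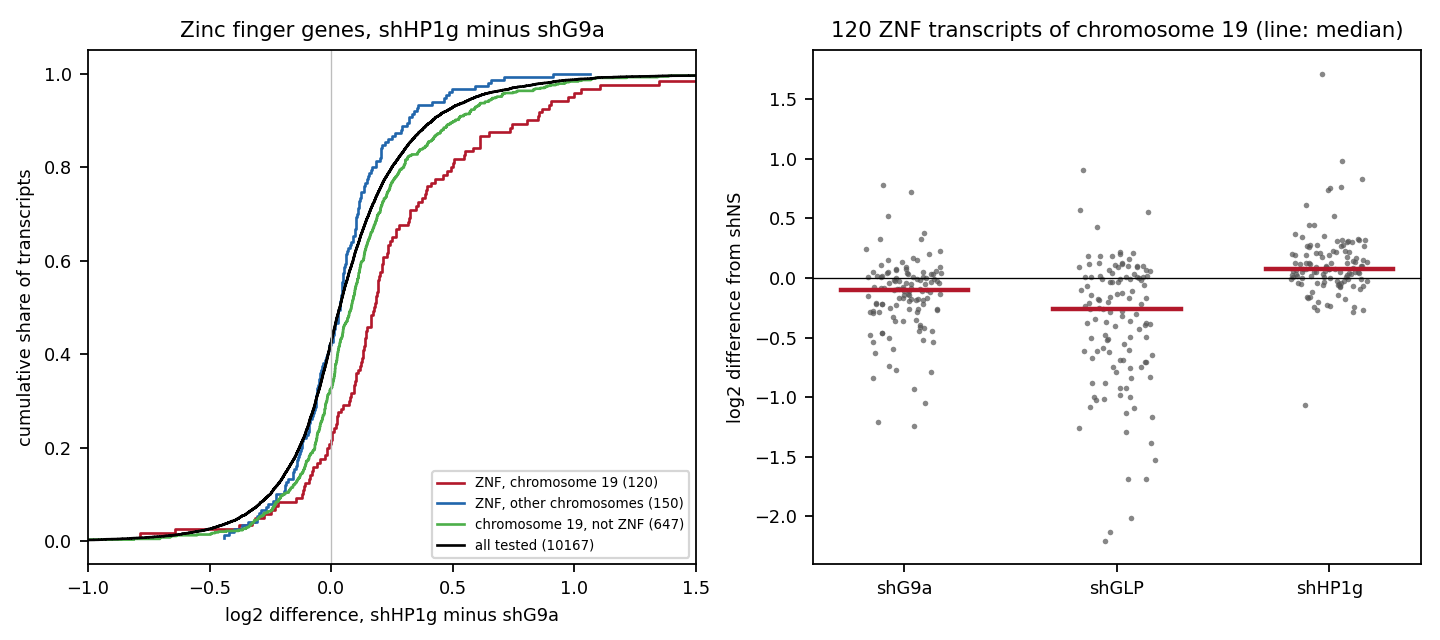
Left, cumulative share of transcripts against the log2 difference of shHP1g minus shG9a, for ZNF transcripts on chromosome 19 (120), ZNF transcripts elsewhere (150), other transcripts of chromosome 19 (647) and all tested (10167). Right, log2 difference from shNS of each of the 120 chromosome 19 ZNF transcripts with each depletion, with a line at the median (-0.10 for shG9a, -0.26 for shGLP and 0.07 for shHP1g), all 3 set against the same shNS libraries.

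The study is about glucocorticoid action, so genes known to be induced by glucocorticoids were followed in both treatments. The list holds genes that the study had picked from these same libraries for dependence on G9a, GLP and HP1γ. TSC22D3, PER1, KLF13, BTG2 and SOCS1 are among them, so the share called is not independent of these data. Of 35 tested transcripts of this list, 8 were higher (22.9%) and 0 lower with shHP1g, with a median log2 difference of 0.13. Over all transcripts tested, 9.43% were higher and 5.65% lower, with a median of 0.04. Without both shHP1g libraries of replicate 1 it was 7 higher and 2 lower with a median of 0.05, without the replicate block 4 were higher, and with ethanol and dex summed 5 were. TSC22D3, which codes for the anti-inflammatory protein GILZ, had 8.33, 7.04 and 5.08 CPM in the shHP1g ethanol libraries of replicates 1, 2 and 3, and 4.10, 2.75 and 2.48 CPM in those of shG9a. In dex it had 112, 60.0 and 56.3 CPM with shHP1g and 49.4, 51.8 and 35.9 CPM with shG9a. All pairs were higher with shHP1g, and over both treatments the log2 difference was 0.92 (standard error 0.14, adjusted p = 4.59e-05, or 0.00874 with ethanol and dex summed, edgeR). The level with shG9a was below that of shNS (log2 difference -1.18), whereas that with shHP1g was not called against shNS (-0.26, adjusted p = 0.185, edgeR). These differences from shNS are means over ethanol and dex. The study compared dex-treated cells only, and there it listed TSC22D3 as dependent on HP1γ as well. By RT-qPCR it also reported a lower dex-induced level of TSC22D3 on depletion of HP1γ. The rise of TSC22D3 on dex was 3.46 on the log2 scale with shHP1g and 3.89 with shG9a, and these did not differ beyond their errors (interaction -0.43, standard error 0.27, adjusted p = 0.891, edgeR).

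SOCS1, a suppressor of cytokine signaling, had a log2 difference of 0.72 (adjusted p = 4.50e-04, edgeR), the antiproliferative gene BTG2 of 0.41 (adjusted p = 3.29e-04, edgeR) and the transcription factor gene KLF13 of 0.33 (adjusted p = 6.97e-04, edgeR). These 3 genes were below shNS with shG9a (-0.86, -0.64 and -0.32). With shHP1g they had differences of -0.15, -0.22 and 0.01 from shNS, none past the limit, as means over both treatments. In dex-treated cells alone, the study listed these 3 genes as dependent on HP1γ. The clock gene PER1 had 0.19 (adjusted p = 0.0189, edgeR), but it was not called without the replicate block (adjusted p = 0.312), without replicate 2 or 3 (0.0883 and 0.0824) or without the shG9a ethanol library of replicate 3 (0.0685). IRS2, DUSP1 and ARHGAP6 passed the limit as well (0.22, 0.24 and 0.54) but did not pass it without the shHP1g dex library of replicate 1 (adjusted p = 0.0565, 0.0598 and 0.0628, edgeR). The 3 genes also lost their call without the replicate block (0.0587, 0.327 and 0.0537) and with ethanol and dex summed (0.0778, 0.122 and 0.0631, edgeR). The same held without a filter on low counts and without replicate 1 or 3. TXNIP, a redox regulator that dex induces, did not differ detectably (21.2 to 40.6 CPM with shHP1g, 18.7 to 43.4 CPM with shG9a, log2 difference -0.06, standard error 0.07). It lay below shNS with both (-0.50 for shHP1g and -0.44 for shG9a). Further genes with an RT-qPCR assay did not pass the limit. LDLRAD4 had a log2 difference of 0.33 (adjusted p = 0.172, edgeR), LILRA2 of 0.04 on 2 to 15 reads per library, and ZNF831 of 0.48 (adjusted p = 0.0772, edgeR), or -0.02 without both shHP1g libraries of replicate 1.

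In ethanol alone, 617 transcripts (6.07%) differed between shHP1g and shG9a, 394 higher and 223 lower. In dex alone 654 (6.43%) differed, 389 higher and 265 lower. Without the replicate block these counts were 240 and 243, and without replicate 3 they were 99 and 142. Called in both treatments were 329, which is 53.3% of the ethanol calls and 50.3% of the dex calls, and all 329 had 1 direction. Of the 617 ethanol calls, 609 had the same sign in dex. These are different libraries, but of cells of the same shRNA and replicate numbers, so they do not replicate each other. The interaction, which tests whether the difference in dex departs from that in ethanol, called 0 transcripts (0%) with edgeR, DESeq2 or limma. Its smallest adjusted p was 0.891 (edgeR), and 463 transcripts had an unadjusted p below 0.05. LINC00861 had log2 differences of 3.96 in ethanol and 4.25 in dex, LINC01694 of 1.44 and 1.28, CNOT11 of 0.85 and 0.79 and RAG1 of -0.93 and -0.72. PER1 passed the limit in dex (0.37, adjusted p = 0.00353) and not in ethanol (0.01, adjusted p = 0.977, edgeR), but its interaction was not called either.

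**Figure D4:**
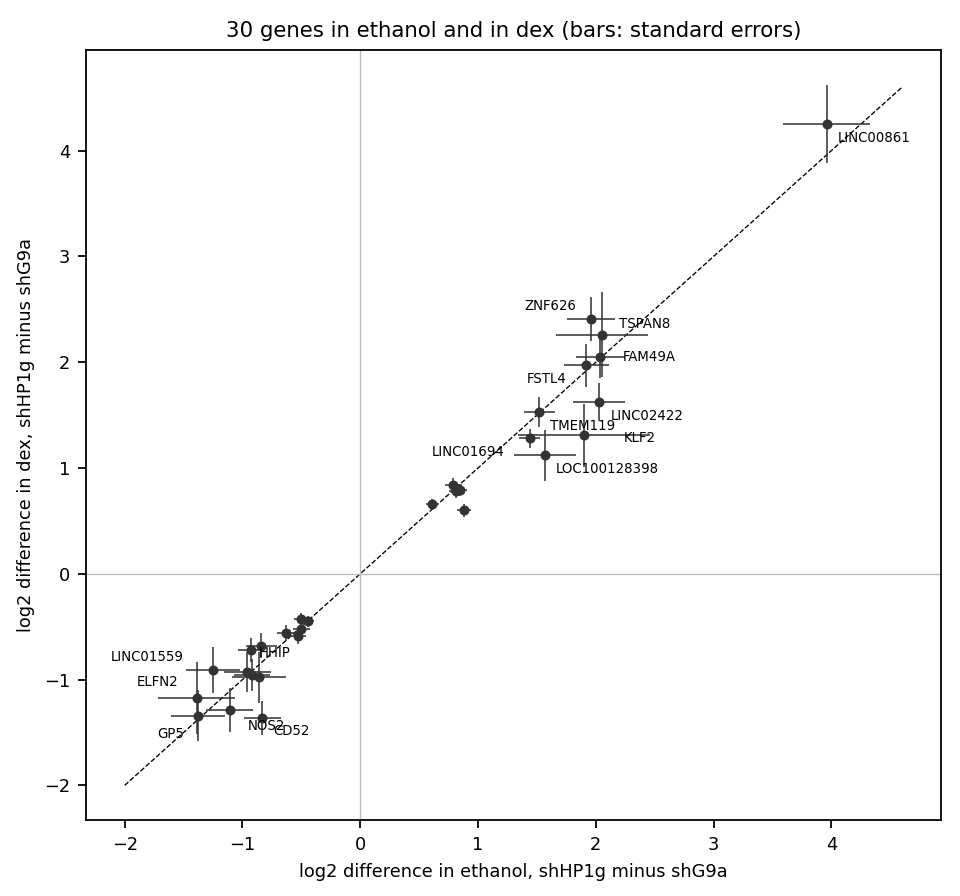
Log2 difference of shHP1g minus shG9a in ethanol (horizontal) and in dex (vertical) for the 30 transcripts named by size or p, with standard errors as bars and a dashed line where both are equal. The points lie along the line in both directions. They were, however, chosen for their mean over the 2 treatments, from cells of the same shRNAs and replicate numbers.

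Genes of the B lineage moved in both directions. Of 17 tested transcripts, 5 were higher (29.4%, against 9.43% of all tested) and 1 lower (5.88%, against 5.65%) with shHP1g. The median log2 difference was 0.30, against 0.04 over all. VPREB3, a gene of the pre-B-cell receptor family, ran from 217 to 385 CPM with shHP1g and from 107 to 228 CPM with shG9a (log2 difference 0.73, standard error 0.11, adjusted p = 4.39e-05, edgeR). The receptor signaling chain CD79A had a log2 difference of 0.88 (adjusted p = 0.00498, edgeR), the surrogate light chain gene IGLL1 of 0.36, the coactivator gene POU2AF1 of 0.30 and the transcription factor gene FOXO1 of 0.25. The lower member was RAG1. Without the replicate block 3 were higher and 1 lower. Of the MHC class II list only CD74, the invariant chain, was tested, with a log2 difference of 0.32 (adjusted p = 0.0234, edgeR) that was not called with ethanol and dex summed (adjusted p = 0.0739) or without the shG9a dex library of replicate 2 (adjusted p = 0.0622, edgeR).

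Among lists of cell growth and division, mitosis genes were higher in 6 of 23 tested transcripts (26.1%, against 9.43% of all tested). They were lower in 0, with a median log2 difference of 0.15. PLK1, the mitotic kinase, had 337 to 567 CPM with shHP1g and 287 to 416 CPM with shG9a (log2 difference 0.35, adjusted p = 2.83e-04, edgeR). CDC20, an activator of the anaphase-promoting complex, had 0.29, KIF20A 0.33 and CCNB2, the gene of cyclin B2, 0.24. The count of higher mitosis transcripts was 12 without both shHP1g libraries of replicate 1, 9 without the ethanol one alone, and 0 without the replicate block. DNA replication genes were lower in 1 of 20 tested transcripts (5.0%, against 5.65% of all tested) and higher in 0. The lower one was CCNE2 (log2 difference -0.30, adjusted p = 0.00115, edgeR), and 3 of these genes were lower by TMM scaling and 4 by DESeq2. Their summed level was 4035 CPM in ethanol and 3517 CPM in dex in the shHP1g libraries of replicate 1, below the 4872 to 5660 CPM of the other 4, and without the pair from replicate 1 the list had 4 higher and 1 lower. Of 24 transcripts of MYC and nucleolar genes 3 were lower (12.5%, against 5.65% of all tested), or 5 with TMM scaling and 6 with DESeq2. The 3 were led by the snoRNP gene NOP58 (-0.24, adjusted p = 0.00298, edgeR). The other 2, WDR12 (-0.17) and TSR1 (-0.12), lost their call in several fits that left out 1 library, such as the shHP1g ethanol library of replicate 1 (adjusted p = 0.0707 and 0.14, edgeR).

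Of 24 transcripts of the amino acid response and tRNA synthetase list, 5 were higher (20.8%, against 9.43% of all tested) and 0 lower (median log2 difference 0.18). Without both shHP1g libraries of replicate 1, 14 were higher, and 9 without the ethanol one. TRIB3, a pseudokinase gene induced by amino acid stress, ran from 18.3 to 35.4 CPM with shHP1g and from 11.3 to 21.0 CPM with shG9a (log2 difference 0.75, standard error 0.10, adjusted p = 1.35e-05, edgeR). The seryl-tRNA synthetase gene SARS had 0.33, the cationic amino acid transporter gene SLC7A1 0.29, PSPH, the last enzyme of serine synthesis, 0.28 and the methionyl-tRNA synthetase gene MARS 0.18. Of 23 heat shock and chaperone transcripts, 5 were higher (21.7%, against the same 9.43%) and 0 lower. They were led by the mitochondrial chaperone HSPA9 (0.29, adjusted p = 2.45e-05, edgeR), with DNAJB6 (0.35), HSP90B1 (0.25), CALR (0.19) and PDIA4 (0.17). Without both shHP1g libraries of replicate 1 the chaperone count was 8, and with TMM scaling or DESeq2 it was 4 higher and 1 lower.

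Glycolysis genes were lower in 4 of 16 transcripts (25.0%) and higher in 1 (6.25%), against 5.65% and 9.43% of all tested. The neuronal-type enolase gene ENO2 had 22.2 to 30.3 CPM with shHP1g and 28.0 to 47.0 CPM with shG9a (log2 difference -0.65, adjusted p = 1.28e-05, edgeR), and shNS libraries, at 18.4 to 26.8 CPM, were at the level of shHP1g. ALDOC, an aldolase gene, had -0.56, the glucose transporter gene SLC2A3 -0.41 and PGK1 -0.16, and without the replicate block 2 were lower. PFKL (0.41) was not called without the shHP1g ethanol library of replicate 1, the shG9a dex library of replicate 2 or with TMM scaling, and the list then had 0 higher. Sterol and fatty acid synthesis genes were called in 0 of 17 transcripts in either direction by edgeR, with 4 lower at an unadjusted p below 0.05 and 1 lower by DESeq2.

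**Figure D5:**
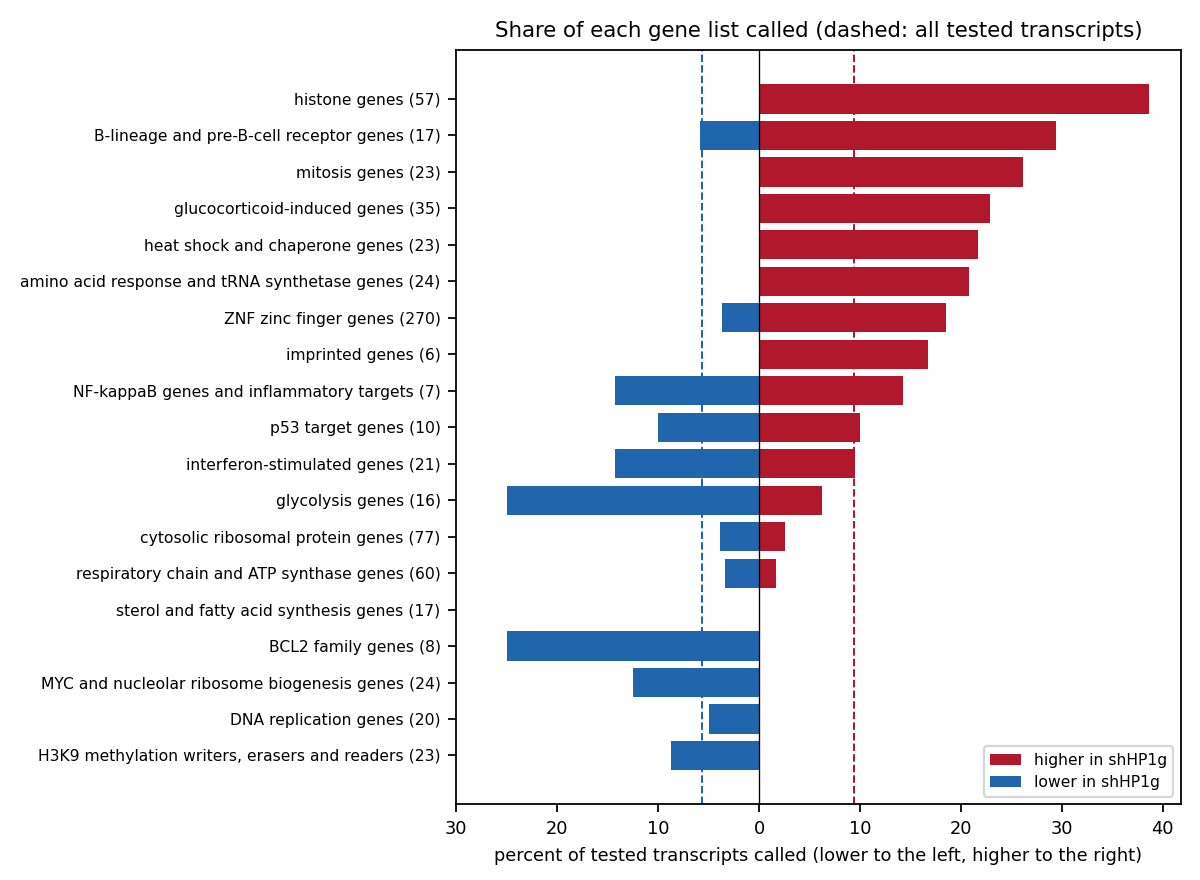
Percent of the tested transcripts of each gene list (number tested in parentheses) called higher (red, to the right) or lower (blue, to the left) with shHP1g, with dashed lines at the 9.43% and 5.65% of all tested transcripts. Lists with fewer than 6 tested transcripts are left out, and the bar of the histone genes stands for 22 transcripts, or 9 without the shHP1g ethanol library of replicate 1.

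Histone genes had the largest shift of any list, and its size fell without 1 library. Of 57 tested transcripts 22 were higher (38.6%, against 9.43% of all tested) and 0 lower, with a median log2 difference of 0.86. In ethanol alone 20 were higher and in dex alone 2. Without the replicate block 3 of the 57 were called. Of these 22, 21 belong to the replication-dependent HIST clusters, whose mRNAs mostly lack a poly(A) tail, and the other was the linker histone gene H1FX. The summed level of the 50 HIST transcripts in ethanol was 402.8, 167.4 and 118.5 CPM in shHP1g replicates 1, 2 and 3 and 157.5, 80.9 and 92.17 CPM in those of shG9a. The first of these libraries stood far above the other 5 shHP1g libraries, which ran from 115.6 to 177.2 CPM. In the same library RPPH1 and RMRP, abundant noncoding RNAs without a poly(A) tail, had 100.2 and 47.31 CPM, against 3.174 to 7.443 and 2.275 to 4.164 CPM in the other shHP1g libraries. An shNS library (dex, replicate 1) and an shGLP library (ethanol, replicate 1) were also high, with HIST sums of 283.5 and 281.1 CPM, RPPH1 at 79.82 and 31.63 CPM and RMRP at 50.73 and 19.93 CPM. The part of tail-less RNA in the histone result was not tested. Without the shHP1g ethanol library of replicate 1, 7 of the HIST transcripts were higher, and without both shHP1g libraries of replicate 1 it was 12. Their median log2 difference was then 0.59 and 0.7, against 0.92 with all libraries. The median HIST sum over the libraries of each shRNA was 152.7 CPM with shNS, 101.2 with shG9a, 176.6 with shGLP and 165.9 with shHP1g. In dex the sums were 177.2, 164.3 and 115.6 CPM with shHP1g and 145.1, 104.9 and 97.42 CPM with shG9a. HIST1H2BK, among the better covered, ran from 6.97 to 16.1 CPM with shHP1g and from 6.48 to 7.70 CPM with shG9a (log2 difference 0.59, or 0.35 without both shHP1g libraries of replicate 1, adjusted p = 0.0474, and 0.31 without replicate 1 of all shRNAs, adjusted p = 0.128, edgeR).

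The remaining lists had few calls or calls in both directions. For comparison, 9.43% of all tested transcripts were called higher and 5.65% lower. Of 23 transcripts of writers, erasers and readers of lysine 9 methylation, 2 were lower, the targeted CBX3 and the demethylase gene KDM4C. KDM4C had a log2 difference of -0.47 (adjusted p = 0.044, edgeR) and lost its call in most fits without 1 library, with DESeq2 and with ethanol and dex summed. Interferon-stimulated genes were higher in 2 of 21 transcripts, such as BST2 (0.18, not called with TMM scaling, DESeq2, no replicate block or ethanol and dex summed, adjusted p = 0.0579 to 0.108), and lower in 3, among them both transcripts of the antiviral sensor gene OAS2 (-0.51 and -0.45). OAS2 ran from 39.0 to 52.9 CPM with shHP1g and from 60.1 to 74.9 CPM with shG9a in its better covered form, without overlap (adjusted p = 7.49e-08, edgeR). The adhesion molecule gene ICAM1 was higher (0.46, adjusted p = 6.80e-06) and the cytokine gene IL1B lower (-0.69, adjusted p = 8.69e-04, edgeR) among 7 transcripts of the NF-kappaB list. The apoptosis regulators BCL2 (-0.19) and PMAIP1 (-0.21) were lower, 2 of 8 transcripts of their family. BCL2 was not called without replicate 1 or 3 (adjusted p = 0.0874 and 0.148) or with the 12 libraries alone (0.0663, edgeR). PMAIP1 was not called without replicate 2 or 3 (adjusted p = 0.121 and 0.159) or without the replicate block (0.0825, edgeR). Among 10 p53 target transcripts BTG2 was higher and DDB2 (-0.30) lower. DDB2 was not called without the shHP1g ethanol library of replicate 1 (adjusted p = 0.0529, edgeR). Of 6 imprinted transcripts KCNQ1OT1, a long antisense RNA whose strand could not be checked here, was higher (0.50, adjusted p = 0.00765, edgeR), with 0.24 and no call without replicate 2. Respiratory chain genes were higher in 1 and lower in 2 of 60 transcripts (0 and 4 with TMM scaling or DESeq2), ribosomal protein genes higher in 2 and lower in 3 of 77, and 0 of 3 germline transcripts were called by edgeR or DESeq2 (0 at an unadjusted p below 0.05). The ribosomal protein count was 9 higher without the shG9a dex library of replicate 2, whose ribosomal sum of 147900 CPM compares with 92710 to 108600 CPM in the other shG9a libraries.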

How the data were processed

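Per the methods, RNA was read from both ends (75 bp), and after trimming the authors aligned reads by HISAT2 to GRCh37 (hg19) and assigned them to RefSeq transcripts with GenomicAlignments. The table they deposited is named for CPM but holds whole-number read counts for 64519 accessions in 24 libraries (9289533 to 14387770 per library), of which 40144 accessions are at 0 throughout. It was therefore used as raw counts. The mode of counting and the use of strand are not given in the sources used here, and many genes with several isoforms are at or near 0. A deposited table with the authors' own fold changes and FDR values was not used.

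As in the study's methods, libraries were scaled by the upper quartile and transcripts with more than 1 CPM in at least 2 libraries were kept (10167 transcripts of 9391 genes). Counts were fitted in R 4.3.3 with edgeR 4.0.16 (quasi-likelihood F test) in 1 model of all 24 libraries, with the 8 groups and the replicate number, which takes the place of the study's correction for unwanted variation. Same-numbered shHP1g and shG9a libraries had correlations of their deviations from the group means between -0.042 and 0.524, so the pairing rests on the replicate numbers in the labels. Adjustment after Benjamini and Hochberg took in all tested transcripts, and the limit was 0.05. With 3 against 3, an exact permutation test of 1 gene cannot go below 0.1. Within the 4 groups compared, none of the 12 pairs of replicates was a duplicate (chi-squared per degree of freedom 3.511 to 39.77). The model was also run on simulated counts, drawn independently with 1 fixed dispersion. These held no replicate effect and no correlation between ethanol and dex libraries, so they do not test how the model handles either. Alternatives were TMM scaling, DESeq2 1.42.0, other filters, counts summed per gene or over treatments, no replicate block and the 12 libraries alone. Each replicate and library was also left out. In limma 3.58.1, libraries of the same shRNA and replicate number were allowed to be correlated. Summing over treatments, limma and leaving out both shHP1g libraries of replicate 1 were added after seeing the data.

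The transcripts named are the targeted genes and their HP1 and GLP relatives, the 10 largest differences in each direction among called transcripts with a mean of at least 5 CPM and 1 direction in 6 of 6 pairs, the 5 smallest p in each direction under the same conditions, up to 3 called members of each gene list (up to 8 for the glucocorticoid and lysine 9 methylation lists), and the genes measured by RT-qPCR. Further called members are named with their list. The members of the comparison and the gene lists were chosen with earlier results of these data known. Gene positions are those of GRCh37 (GENCODE), promoters those of RefSeq (GRCh38.p14). Limits from counts cover counting error only.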

Additional observations from a re-analysis of the deposited data

Results flagged for a closer look

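In 17 of 218 groups of 6 libraries (7.8%), the highest or lowest library lay apart from the other 5 by more than the 95% critical value of Dixon's ratio. Each group joined the ethanol and dex libraries of 1 shRNA on the CPM scale, so the nominal rate of 1 in 20 need not hold. Of the 17, 5 were the dex library of shG9a replicate 2. It had a summed level of 147900 CPM for ribosomal protein genes (others 92710 to 108600), 12410 CPM for respiratory chain genes (10130 to 10980) and 1565 CPM for interferon-stimulated genes (1308 to 1385), with 218 CPM for NDUFA6 (147 to 166) and 87.4 CPM for RPS27L (56.3 to 67.7). The ethanol library of shHP1g replicate 1 stood apart in the HIST sum (402.8 CPM, others 115.6 to 177.2), in RPPH1 (100.2 CPM, others 3.174 to 7.443) and in RMRP (47.31 CPM, others 2.275 to 4.164). The ethanol library of shHP1g replicate 2 was high in ELFN2 (208 CPM, others 47.1 to 65.5), ALDOC (150.0 CPM, others 68.3 to 89.6), ENO2 (30.3 CPM, others 22.2 to 22.8) and USMG5 (12.5 CPM, others 8.48 to 9.57). The dex library of shHP1g replicate 1 was high in KLF2 (80.6 CPM, others 2.32 to 22.1), and that of replicate 2 in FAM49A (10.8 CPM, others 8.2 to 9.02). Among shG9a libraries, ethanol replicate 1 was high in DNA replication genes (6031 CPM, others 4914 to 5329), and ethanol replicate 2 was high in RAG1 (2820 CPM, others 2100 to 2330) and low in RMRP (0.9467 CPM, others 1.871 to 2.4).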

How the results depend on the processing

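Of the 85 named transcripts, 0 changed direction past the limit under the alternatives tried. Which direction held more of the calls did change with the scaling, tool or filter, as given below. In the DNA replication list, the direction that held more calls changed without both shHP1g libraries of replicate 1. Without the replicate block, the number of transcripts that differed between shHP1g and shG9a was 826 over both treatments, 240 in ethanol and 243 in dex. With only the 12 libraries fitted it was 945, 193 and 184 in the same order, and with ethanol and dex summed it was 891. Leaving out 1 replicate number gave 678 to 1373 transcripts over both treatments, 99 to 630 in ethanol and 142 to 628 in dex, in each case fewest without replicate 3. Leaving out 1 library gave 1229 to 1529, 308 to 879 and 391 to 755. The ethanol count was 308, 373 and 388 without the ethanol libraries of shG9a replicate 2, shG9a replicate 3 and shHP1g replicate 2, and 879 without the dex library of shG9a replicate 2. The dex count was 391 and 413 without the dex libraries of shG9a replicate 2 and shHP1g replicate 2. Without both shHP1g libraries of replicate 1 the counts were 1621, 832 and 791. The interaction had 18 calls without a filter on low counts and 0 in every other fit. Of the 77 named transcripts that were called, 50 passed the limit in all 25 settings, 20 lost the call without the replicate block and 22 without replicate 3. The share of calls that were higher with shHP1g was 62.6% with upper quartile scaling, 758 of 1516 calls with TMM, 45.9% with DESeq2 and 36.3% without a filter. The causes of these changes were not tested, beyond the smaller number of libraries in some fits. Transcripts near the filter of 1 CPM rest on few reads per library, so depth limits the differences that could be detected in them.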
